A study of Mus musculus with 12 samples.

Results

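Neurospheres that had received a prominin-1 virus were compared with control neurospheres after 108 h of culture, on the 3 arrays titled 108 hours Prominin and the 3 titled 108 hours Control, out of 12 arrays in the study. Of 21738 probes, 14528 had values on at least 2 arrays of both groups and were tested, and 7704 of these had values on all 6 arrays. The tested probes with 1 gene symbol stood for 11143 genes. Not tested were 188 probes with values on all 3 control arrays and no prominin array, and 163 with the reverse.

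Both groups were neurospheres from the cortex of mouse embryos of gestational day 12.5, grown without serum in the presence of LIF, EGF and basic FGF. The prominin group was cultured for 108 h with an adenovirus that expressed a construct labelled CD133/R-prominin1. The control group had growth medium alone according to its treatment label, but the design text contrasts GFP positive with prominin positive neurospheres. Effects of the virus and of prominin-1 therefore cannot be told apart. The strain of the cultured embryos is not given in the labels, and no genotype is given. The other 6 arrays are titled as the same 2 kinds of culture at 24 h. The treatment text of the 24 h prominin arrays nevertheless gives 108 h with the virus. The titles were followed, so the time of these 3 arrays is in doubt. Each array set neurosphere RNA (Cy5) against a common reference of RNA from whole C57/Bl6 embryos of gestational day 12 (Cy3). Nothing in the labels ties replicates to separate cultures, so the p-values cover the spread between these arrays, which may be technical.

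Prominin-1, also called CD133, is a glycoprotein with several membrane spans that sits in plasma membrane protrusions such as microvilli and cilia, where it binds cholesterol and associates with gangliosides. It marks neural stem and progenitor cells, and neurospheres are floating clusters in which such cells multiply and from which neurons, astrocytes and oligodendrocytes can be obtained. FGF and EGF keep these cells dividing, while Wnt and Notch signals steer their renewal and differentiation in the embryonic cortex.

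Values are log2 ratios of neurosphere to reference RNA after centring of each array. The centre was its median over the 4532 probes with values on all 12 arrays. This median is 0 and is called the median probe here, and a difference of 1 is a doubling relative to it. The median of all measured probes lay above it on each 108 h array. Which RNA is the numerator is unstated in the labels, and sample over reference was assumed. Before centring, the median over probes with a value on each of the 12 arrays lay from −2.59 to −1.78 in the prominin group and from −1.32 to −0.84 in controls, without overlap. Centring thereby removed −1.08 between the group means, so the differences given here are not differences against the reference itself. On the deposited scale the median difference was below 0 for each of the 38 gene lists described here except cytosolic ribosomal proteins. Each array had 15944 to 16598 measured probes, and correlations between arrays were 0.546 to 0.665 within groups and 0.552 to 0.672 between them (7704 probes). The defining genes of neural progenitors and glia were present in both groups. Sox2, a stem cell transcription factor, averaged 3.36 ± 0.49 in controls and 3.67 ± 0.17 in prominin cultures (SD, n = 3 each). Vim, a filament gene of radial glia, averaged 2.57 ± 0.38 and 2.53 ± 0.13, and Fabp7, a fatty acid carrier of radial glia, 3.80 ± 0.39 and 3.46 ± 0.54. Nes, which encodes nestin, lay near the median probe at −0.07 ± 0.80 and 0.66 ± 0.35. Pax6, a cortical progenitor factor gene, averaged 0.88 ± 0.76 and 0.27 ± 2.00 by the one of its probes that had values on all 6 arrays. Its other tested probe had much higher ratios, with 7.38 and 7.57 on control arrays 1 and 2 and 9.03, 8.30 and 1.51 on the prominin arrays.

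Prom1, the mouse gene of prominin-1, lay at −2.51, −2.33 and −4.34 on the control arrays and at −0.11 and −0.85 on prominin arrays 1 and 3, and had no value on prominin array 2. Both measured prominin arrays were above the 3 control arrays. The difference was 2.58 (SE 1.00; limma adjusted p = 0.886; 2-sided exact permutation p = 0.1, which no p from 10 arrangements can undercut), and it did not pass the test. Without centring the difference was 1.28, and the groups overlapped, since prominin array 3 then lay just below control array 2. Whether this single probe, made for the mouse transcript, reads the transferred construct was not tested.

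No gene passed the threshold after adjustment in the fit across all tested probes, which does not show that none changed. Some genes were chosen for a small unadjusted p among probes whose groups did not overlap. Examples with higher values were the neuropeptide gene Cck, the glial filament gene Gfap, the forkhead factor gene Foxp1 and the calcium buffer gene Casq1. Examples with lower values were the adaptor gene Crkl, the Wnt ligand gene Wnt7a, the ephrin receptor gene Epha4 and the calmodulin kinase gene Camk2g. A second probe of Crkl differed by only −0.50, and a second probe of Epha4 by 1.04. Other genes so chosen, such as Krt33a and Adam8, had a smaller p than several of these examples. As a group, genes of cytosolic ribosomal proteins had higher values relative to the median probe.

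Limma called 0 of 14528 probes (0.0%) at an adjusted p of 0.05, and the smallest adjusted p was 0.886. At an unadjusted p under 0.05 there were 706 probes, 366 higher in prominin cultures (2.52% of the tested probes) and 340 lower (2.34%). Without centring there were 1556 such probes, and 5.08% of them were higher, against 51.8% after centring. The groups did not overlap for 1348 probes that were higher (9.28%) and 1264 that were lower (8.7%). A difference above 0 was found for 7407 probes (51.0%), with a median of 0.03 and quartiles of −0.86 and 0.88. The median SE of a difference was 1.13. Of the 653 genes with several tested probes, 343 had probes of opposite sign. All genes below had a limma adjusted p of 0.886 or above, and none passed the test.

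**Figure D1:**
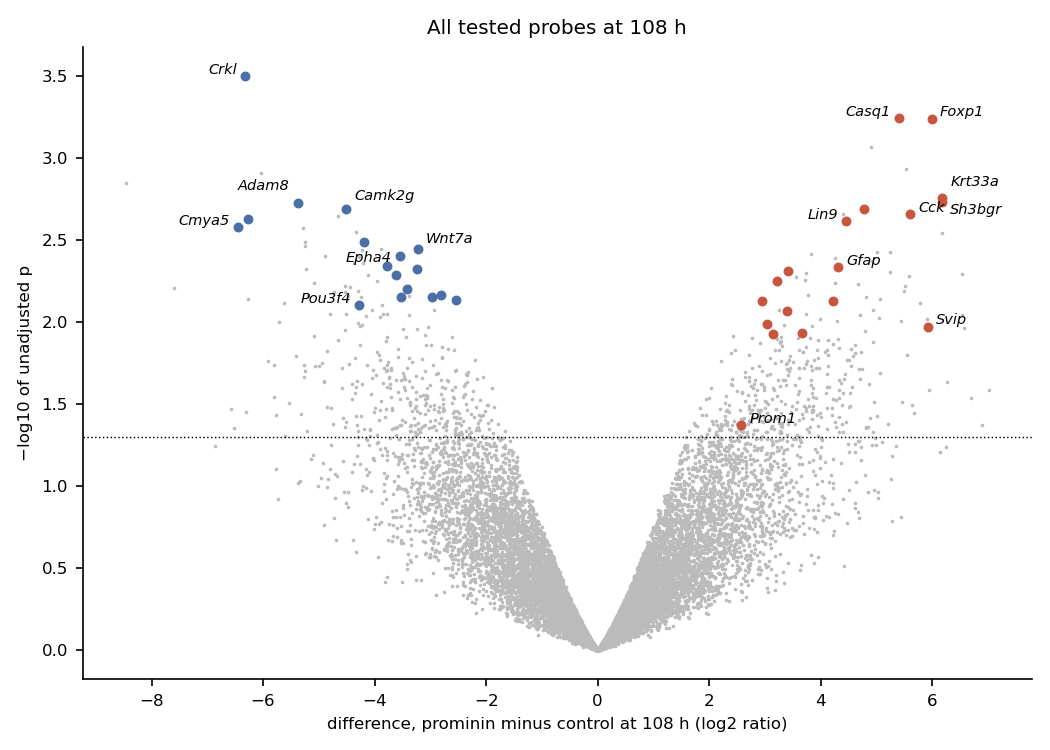
Each point is 1 of the 14528 tested probes, with the difference between prominin and control cultures at 108 h (log2 ratio) across and −log10 of the unadjusted p up. The dotted line marks an unadjusted p of 0.05, coloured points are the named genes, and Crkl has the smallest p (0.000313), which did not pass after adjustment.

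Among genes of neural and glial identity, Cck, which encodes the neuropeptide cholecystokinin, lay at −1.03, 2.28 and 1.40 in controls and at 4.77, 7.38 and 7.29 in prominin cultures. The difference was 5.60 (SE 1.19), and the lowest prominin array was above the highest control array, as the rule that named Cck required. Gfap, the intermediate filament gene of astrocytes and neural stem cells, was read by 2 probes with very different ratios to the reference. The probe with the lower ratios lay at 1.10, 2.09 and 1.27 in controls and at 7.55, 5.89 and 3.94 in prominin cultures, a difference of 4.31 (SE 1.05) without overlap. The other lay at 8.55, 6.69 and 8.10 against 9.03, 9.46 and 8.58, a difference of 1.25 (SE 0.80). In cultures of mixed cells, more cells of a type and more RNA per cell cannot be told apart. After centring, both Gfap probes were higher on every prominin array than on every control array, which the rule required of the first. Without centring this still held for the probe with the lower ratios (difference 3.23), but the groups of the other probe overlapped.

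The other genes of these cell types went both ways. Of 26 astrocyte probes 5 were higher and 21 lower (median −0.48), among them Acsbg1, an acyl-CoA synthetase gene, with 6.95, 9.87 and 7.52 in controls and 5.26, 6.04 and 6.12 in prominin cultures (−2.31, SE 0.96). With array spreads made equal the astrocyte median relative to all probes was 0.04, so its sign depended on the scaling. Of 29 neural stem and radial glia probes 12 were higher and 17 lower, with a median of −0.04 beside 0.03 for all probes. Msi1, which encodes the RNA-binding protein Musashi-1, lay at 3.54, 4.02 and 2.26 in controls and at −1.11, −7.83 and 1.47 in prominin cultures. Its difference of −5.77 (SE 2.24) rested largely on prominin array 2. Gli3, a transcription factor gene of the hedgehog pathway, was 2.50 lower (−2.50, SE 1.05).

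In the oligodendrocyte lineage 8 of 12 probes were higher and 4 lower (median 0.56). Nkx2-2, a transcription factor gene of oligodendrocyte precursors, lay at 4.89, 4.40 and 3.45 in controls and at 7.03, 6.65 and 6.22 in prominin cultures (2.39, SE 0.75). Cldn11, the claudin gene of myelin, had the opposite order, with 1.37, 3.21 and 2.15 against −1.24, 0.44 and −0.82 (−2.78, SE 0.86). Neither gene's groups overlapped. Mbp, the myelin basic protein gene, had 3 probes with differences of −1.33, 0.55 and −0.32, so that its probes gave no common direction. Among 32 neuronal probes 17 were higher and 15 lower (median 0.05). Ncam1, the neural cell adhesion gene, had 3 probes that were all lower (−1.93, −1.48 and −0.81).

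Of the Wnt pathway, 25 of 56 probes were higher and 31 lower, with a median of −0.22, and the groups did not overlap for 3 higher (5.36%, beside 9.28% of all tested probes) and 9 lower probes (16.1%, beside 8.7%). At an unadjusted p under 0.05 there were 0 higher (beside 2.52% of all tested probes) and 4 lower (beside 2.34%). The ligand gene Wnt7a lay at 4.83, 6.07 and 5.24 in controls and at 2.46, 1.50 and 2.50 in prominin cultures. All 3 control arrays were above all 3 prominin arrays, as the rule that named Wnt7a required, and the difference was −3.23 (SE 0.75). Wnt3, another ligand gene, had the opposite order, with −2.46 and −7.46 in 2 controls and 0.06 and −0.96 on 2 prominin arrays (4.51, SE 1.87). Sfrp1, which encodes a secreted Wnt antagonist, lay at −1.42, 3.69 and 1.28 against −5.35, −2.31 and −2.0 by one probe (−4.40, SE 1.53), whereas its other probe gave 0.73.

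Downstream in the same pathway, Dvl1, which encodes the Dishevelled protein that relays the receptor signal, lay at −1.05 and −0.26 on 2 control arrays and at −3.64, −2.40 and −5.14 in prominin cultures (−3.07, SE 1.09). The co-repressor gene Tle1 lay at 0.73, 0.05 and −0.79 against −2.36, −3.06 and −1.67 (−2.36, SE 0.79). The other members with lower values and no overlap were named for that order. They included the co-receptor gene Lrp5 (−2.63, SE 1.32), the transcription factor gene Tcf7l2 (−2.07, SE 0.98; other probe −0.21), the co-repressor gene Tle4 (−3.67, SE 1.90; other probe −0.33) and Ctnnb1, the β-catenin gene (−3.02, SE 1.80). Ctnnb1 was high on control array 2 alone (4.35, with −2.07 and −2.18 on the other two) and lay at −2.45, −2.56 and −3.96 in prominin cultures. Gsk3b, the kinase gene that marks β-catenin for breakdown, had 3 probes with differences of −1.77, −1.07 and 1.05, and the groups did not overlap for the second of these. The ligase adaptor gene Btrc (1.56, SE 0.72) and the R-spondin receptor gene Lgr5 (1.95, SE 1.15) were higher. Without control replicate 1 the Wnt list median relative to all probes was 0.09, and without prominin replicate 3 it was −0.50, against −0.25 with all arrays.

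Signalling from the FGF, EGF and LIF receptors, the factors in the medium, had 26 of 47 probes higher and 21 lower (median 0.17). Crkl, which encodes an adaptor that links receptor kinases to Ras-family proteins, lay at 7.17 and 6.84 on control arrays 2 and 3 and at 0.003, 1.01 and 1.03 in prominin cultures. Its difference of −6.32 (SE 0.85) had the smallest p of all probes, but a second Crkl probe gave −0.50 (SE 1.01). The related adaptor gene Crk was 1.82 higher (SE 0.85). Sos2, an exchange factor gene for Ras, lay at 6.22 and 3.68 on 2 control arrays and at 2.12 and 0.59 on 2 prominin arrays (−3.59, SE 1.33). Egfr, the EGF receptor gene, was low throughout, with −2.45, −3.11 and −2.76 in controls and −1.17, −1.86 and −1.10 in prominin cultures (1.40, SE 0.69), without overlap. Lifr, the LIF receptor gene, lay at 0.14, −0.43 and 0.42 against −1.83, −0.44 and −4.34 (−2.25, SE 1.10).

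The list of calcium and calmodulin kinase genes had 8 of 23 probes higher and 15 lower (median −0.27). Camk2g, which encodes a calcium/calmodulin-dependent kinase subunit, lay at 1.59, 2.38 and 2.70 in controls and at −3.92, −1.13 and −1.82 in prominin cultures (−4.51, SE 0.94). Slc8a1, the sodium/calcium exchanger gene, lay at −1.96, −3.38 and −1.50 against 2.21, 1.34 and −0.16 (3.41, SE 0.94). Ryr3, a calcium release channel gene of internal stores, lay at −1.25, 0.50 and −0.44 against 3.78, 2.23 and 1.93 by one probe (3.04, SE 0.87) and was 1.38 lower by the other (−1.38, SE 1.21). Casq1, which encodes the calcium buffer calsequestrin, lay at −5.96 and −5.33 on 2 control arrays and at 0.03, −0.32 and −0.41 in prominin cultures (5.41, SE 0.81). The groups of these 4 probes did not overlap, as the rule that named them required. In the wider list of ion channels and exchangers 34 of 74 probes were higher and 40 lower (median −0.25). There the NMDA receptor subunit gene Grin2a was 3.29 higher (SE 0.94), and its relative Grin2c had a difference of −3.36 (SE 1.19). Hcn4, a pacemaker channel gene, lay at 3.68 and 3.22 on 2 control arrays against −0.68 and 0.65 on 2 prominin arrays (−3.46, SE 1.04).

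Among guidance and adhesion genes, Epha4, which encodes a receptor for ephrins, lay at 0.78, 1.77 and 2.61 in controls and at −0.92, −2.35 and −2.20 in prominin cultures (−3.54, SE 0.84). A second Epha4 probe gave 1.04 (SE 1.03). Its ligand genes differed in sign, with Efna2 at 3.84 (SE 1.27) and Efnb1 at −2.48 (SE 0.99), and the receptor gene Ephb3 lay 2.00 higher (SE 0.86). The 52 axon guidance probes divided into 23 higher and 29 lower (median −0.23). Cdh13, the gene of T-cadherin, lay at 1.55, 0.88 and 0.91 against −1.17, −1.58 and −1.53 (−2.54, SE 0.68). Ccdc88a, which encodes the actin-binding protein girdin, lay at 3.10, 4.79 and 2.40 against 0.57, −0.86 and −0.28 (−3.62, SE 0.90). Adam8, a membrane metalloprotease gene, lay at 5.34 and 7.06 on 2 control arrays against 0.39, 1.80 and 0.28 (−5.38, SE 1.01).

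Transcriptional regulators were named in both directions. Foxp1, a forkhead factor gene, lay at −6.40 and −5.89 on control arrays 2 and 3 and at −0.93, −0.18 and 0.65 in prominin cultures (5.99, SE 0.90). Lin9, which encodes a subunit of the MuvB complex that controls cell cycle genes, lay at −2.17, −1.29 and −3.62 against 0.85, 2.49 and 2.98 (4.46, SE 0.96). Nr2c1, an orphan nuclear receptor gene, lay at −1.16, −2.33 and −1.64 against 2.86, 0.75 and 1.51 (3.42, SE 0.84). These 3 were higher in prominin cultures without overlap, as the rule that named them required. Pou3f4, a POU factor gene of the developing brain, lay at 3.68, 4.44 and 1.58 in controls and at −2.83, −0.58 and 0.30 in prominin cultures (−4.27, SE 1.16). Utf1, a chromatin factor gene of pluripotent cells, lay at 2.07, 3.67 and 0.97 against −1.05, −1.27 and −1.22 (−3.41, SE 0.88).

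The forebrain patterning factors had 6 of 17 probes higher and 11 lower (median −0.29). Otx2, a homeobox gene of the anterior brain, lay at 0.88, 0.97 and 1.92 in controls and at −0.94 and −1.95 on 2 prominin arrays (−2.70, SE 0.88). Notch pathway probes divided into 13 higher and 15 lower (median −0.13). Hey1, a target gene of Notch, was 2.21 higher (SE 0.94), whereas Hes6 lay at −1.51 (SE 0.79) and Aph1a, a γ-secretase subunit gene, at −2.58 (SE 1.21). The sign of the Notch list median changed without control replicate 1 (0.15 relative to all probes).

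Several named genes act in vesicle traffic, lysosomes or metabolism. Rab5b, a GTPase gene of early endosomes, lay at 4.56, 6.26 and 4.50 in controls and at 1.54, 1.92 and 2.11 in prominin cultures (−3.25, SE 0.79). Stxbp3, which encodes a Munc18 protein that binds syntaxins, lay at 2.31, 1.56 and 1.62 against −2.04, −0.21 and −1.17 (−2.97, SE 0.79). Ostm1, the gene of a subunit of the lysosomal chloride transporter, lay at 5.82, 5.50 and 6.53 against 2.68, 3.84 and 2.90 (−2.81, SE 0.74). For each of these 3 genes the control arrays were the higher ones without overlap, as the rule that named them required.

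Nat8l, the gene of the enzyme that makes N-acetylaspartate, lay at 4.69, 3.06 and 3.24 in controls and at −1.25, −0.22 and 1.10 in prominin cultures (−3.78, SE 0.92). Svip, which encodes an inhibitor of the breakdown of misfolded endoplasmic reticulum proteins, lay at −4.42, −0.61 and 0.13 against 6.26, 5.34 and 1.26 (5.92, SE 1.71). Epm2a, the gene of the glycogen phosphatase laforin, lay at −0.59, −1.31 and −1.17 against 3.82, 1.36 and 1.19 (3.15, SE 0.93). Both were higher in prominin cultures without overlap, as the rule that named them required, and Nat8l was lower. The 45 synaptic vesicle and SNARE probes divided into 16 higher and 29 lower (median −0.27). The synaptotagmin gene Syt1 lay at −3.68 (SE 1.51), with −6.51 on prominin array 1, and Syt11 at −2.06 (SE 0.80; other probe −0.32).

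Further genes named by the same rule with higher values were Bnipl (4.21, SE 1.13), the mucin gene Muc2 (2.94, SE 0.79; other probes −2.28 and 0.30), the ankyrin repeat gene Sowahb (3.67, SE 1.08), Krt33a, which encodes a keratin of hair (6.18, SE 1.01), Sh3bgr (6.17, SE 1.02) and the retinol dehydrogenase gene Rdh12 (4.77, SE 0.92). The last 3 had 4 or 5 values each. With lower values were an immunoglobulin kappa variable gene (−3.52, SE 0.93), the muscle gene Cmya5 (−6.45, SE 1.16; other probe 0.84), the pore-forming gasdermin gene Gsdmd (−4.19, SE 0.88) and a probe given to the phosphatase subunit gene Ppp2r3c (−6.28, SE 1.10). The last 3 of these lower genes also had 4 or 5 values each. The symbol Ppp2r3c is attached to 19 probes with unlike values, and the gene is doubtful for the probe given here. Of the 34 genes chosen by the rule, 17 were higher and 17 lower by its construction.

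**Figure D2:**
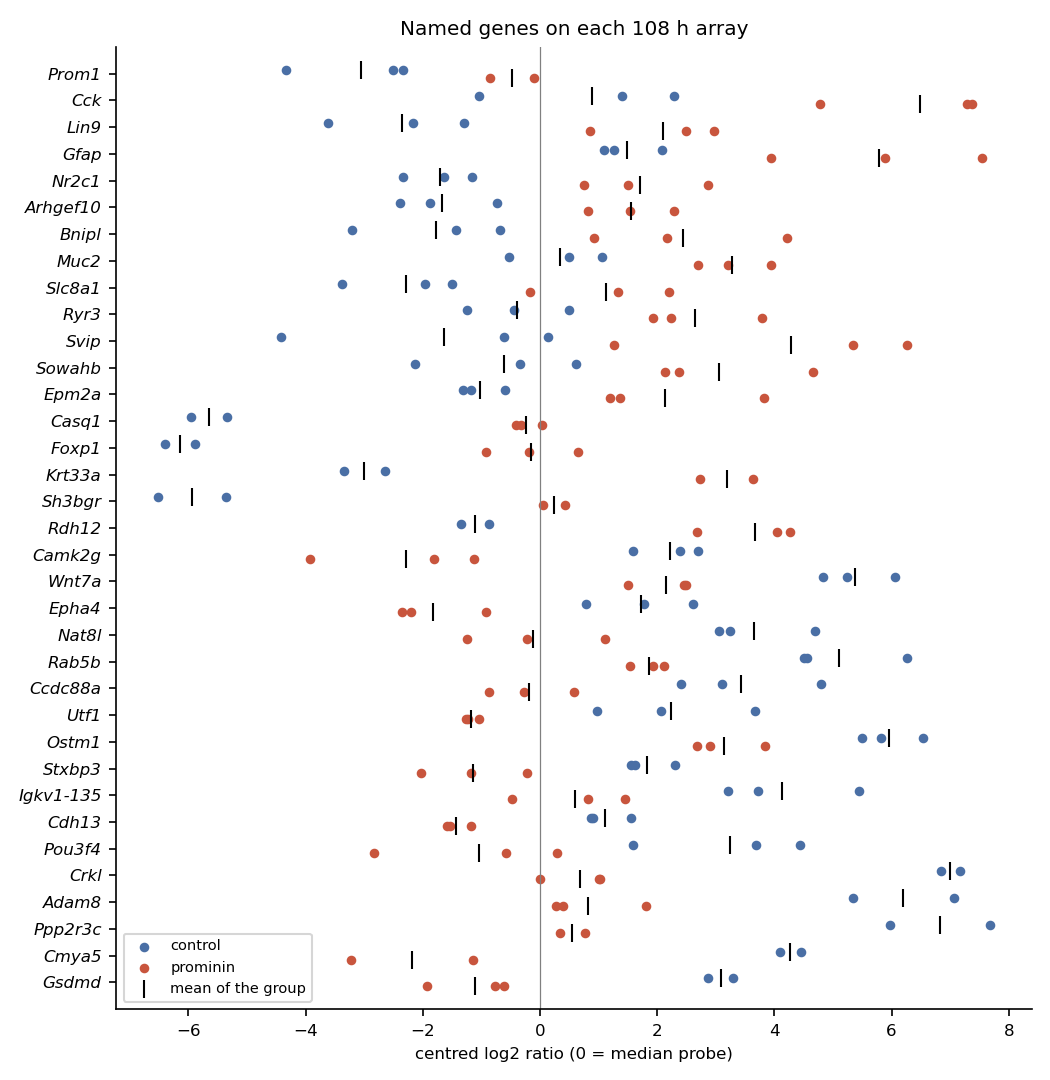
Centred log2 ratios of Prom1 and the 34 genes chosen by the rule on each 108 h array, with control arrays in blue, prominin arrays in red and a bar at each group mean. The groups do not overlap in any row because the rule required it for the 34 genes, and Prom1, Casq1 and Crkl are among the genes with a missing array.

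Genes of cytosolic ribosomal proteins, the building blocks of the translating ribosome, lay higher in the prominin group when set against the median probe. Of 69 probes 61 were higher and 8 lower, and the median difference was 1.22 beside 0.03 for all probes. The groups did not overlap for 33 higher probes (47.8%, beside 9.28% of all tested probes) and 3 lower ones (4.35%, beside 8.7%). At an unadjusted p under 0.05 there were 0 probes of the list, beside 4.86% of all tested probes. The list medians were −0.80, −0.56 and −0.40 on the control arrays and −0.22, −0.03 and 1.67 on the prominin arrays. Prominin array 3 thus stood above the other arrays, and without it the list median relative to all probes was 0.58 instead of 1.20. On the deposited scale the list medians were −2.11, −1.40 and −1.72 in controls and −2.82, −1.81 and −0.65 in prominin cultures. There the groups overlapped, and the median difference was 0.15.

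**Figure D3:**
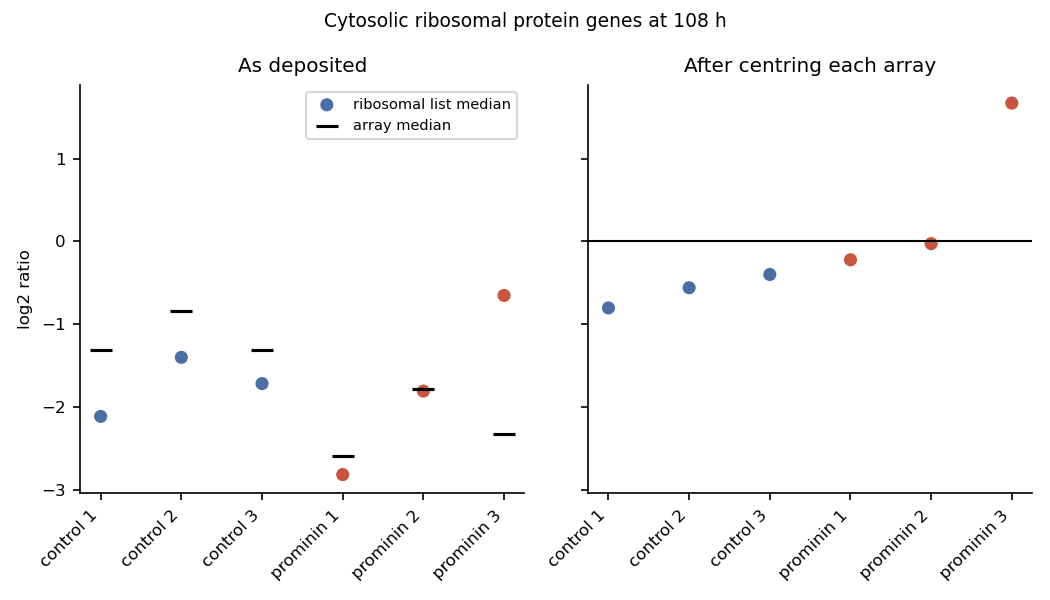
Median log2 ratio of the cytosolic ribosomal protein list on each 108 h array, as deposited (left, with a bar at the array median) and after centring (right, with the array median at 0). The deposited list medians of the 2 groups overlap, and after centring the 3 prominin arrays lie above the 3 control arrays, with prominin array 3 highest at 1.67.

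Messenger RNAs of ribosomal proteins are known to begin with a run of pyrimidines near the transcription start, through which their translation is regulated together. The windows of 30 bases around the RefSeq start (15 before and 15 after, GRCm38.p6) are shown for 4 members whose groups did not overlap, with each CTTT in capitals. All 4 windows hold CTTT, unlike most windows of the list, and these members are not those of smallest p. They are examples and do not stand for the list.
Rpl38, chr11:114668565-114668594, plus strand: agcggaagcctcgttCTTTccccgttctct
Rpl35, chr2:39005117-39005146, minus strand: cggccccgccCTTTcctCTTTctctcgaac
Rpl28, chr7:4792950-4792979, plus strand: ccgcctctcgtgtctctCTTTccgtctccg
Rplp2, chr7:141447636-141447665, plus strand: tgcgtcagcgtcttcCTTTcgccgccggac

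The letters CTTT were present on the printed strand, which runs in the direction of the gene, in 22 of 70 such windows of the list's genes (31.4%) and in 3937 of 32851 windows of all promoters (12.0%). Their reverse complement AAAG was present in 5 (7.14%) and in 11.7%. These are matches of letters and not measured sites. Rpl38 lay at −0.06, −0.22 and 0.25 in controls and at 0.96, 1.42 and 2.07 in prominin cultures (1.49, SE 0.70), and Rpl35 at −0.12, −0.02 and −0.01 against 0.99, 0.97 and 2.10 (1.40, SE 0.71). Rpl28 lay at 0.05, 0.12 and 0.17 against 0.96, 0.99 and 2.20 (1.27, SE 0.72), and Rplp2 at 0.03, −0.21 and 0.51 against 0.65, 1.24 and 2.25 (1.27, SE 0.76). In all 4 genes the prominin arrays were the higher ones and array 3 was the highest.

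By smallest p the list was led by Rps4x, a small subunit gene, with −2.82, −2.71 and −2.32 in controls and −0.89, −1.71 and 0.28 in prominin cultures (1.85, SE 0.79). It was followed by the stalk protein gene Rplp1 (1.61, SE 0.71), Rps29 (1.68, SE 0.75), Rps13 (1.63, SE 0.75) and Rpl22 (2.52, SE 1.13). The 3 lower probes without overlap belonged to Rps26 (−1.11), Rps2 (−0.40) and a second probe of Rps12 (−1.72), whose first probe gave 1.28. Ribosomal protein genes have many processed pseudogenes, and how far the probes separate them was not tested.

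Lists for translation factors, mitochondria and protein breakdown are given beside the ribosomal list, and whether they differed from it was not tested. Translation factors had 33 of 51 probes higher and 18 lower (median 0.30). Eif4e, which encodes the cap-binding factor, lay at −2.60, −2.47 and −1.78 in controls and at 1.32 and −0.09 on 2 prominin arrays (2.89, SE 0.90). The elongation factor genes Eef1b2 and Eef1d each had one probe higher (1.40 and 1.31) and one lower (−3.96 and −2.19). Oxidative phosphorylation had 48 of 64 probes higher and 16 lower (median 0.33), with Uqcrh, a subunit gene of complex III, at 7.02 (SE 2.23) on 2 arrays of each group. Mitochondrial ribosomal proteins had 35 higher and 28 lower (median 0.09), and the proteasome 18 and 13 (median 0.15). Without prominin replicate 3 the medians relative to all probes were 0.12 for translation factors, 0.08 for oxidative phosphorylation and −0.03 for the proteasome. On the deposited scale the medians were −0.78, −0.75 and −0.93.

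Mitosis and spindle genes, which mark dividing cells, had 30 of 40 probes higher and 10 lower, with a median of 0.78. The groups did not overlap for 9 higher probes (22.5%, beside 9.28% of all tested probes) and 0 lower ones (beside 8.7%). At an unadjusted p under 0.05, 1 probe was higher, a share close to the 2.52% of all tested probes. The list medians were −2.23, −2.63 and −2.54 in controls and −1.42, −1.12 and −1.72 in prominin cultures, all below the median probe and without overlap. Nusap1, a spindle gene, lay at −3.57 and −4.39 on 2 control arrays against −1.64, −1.24 and −2.36 (2.23, SE 0.87). The checkpoint kinase gene Bub1 lay at −2.34, −3.07 and −5.66 against −1.82, −0.65 and −1.54 (2.35, SE 1.04). The other probes without overlap belonged to the condensin gene Smc2 (3.34; other probe −1.29), the kinase genes Plk4 (1.55) and Ttk (1.70), and Fzr1 (1.22), Bub1b (0.89), Stmn1 (0.80) and Bub3 (0.77). Bub1b, Stmn1 and Bub3 turned to −0.083, −0.28 and −0.31 without centring. DNA replication and S phase genes had 26 of 49 probes higher and 23 lower (median 0.15). The mitosis median was 0.23 relative to all probes with array spreads made equal, and −0.29 on the deposited scale.

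Prominin-1 gathers with cholesterol and gangliosides, and the genes that make these lipids had more probes lower than higher. Gangliosides and sphingolipids had 6 of 21 probes higher and 15 lower (median −0.78), with list medians of 0.80, 1.13 and 0.65 in controls and −0.39, 0.53 and 0.00 in prominin cultures. At an unadjusted p under 0.05 there were 0 probes of this list, beside 2.52% higher and 2.34% lower of all tested probes. The groups did not overlap for 2 higher (9.52%, beside 9.28%) and 3 lower probes (14.3%, beside 8.7%). B4galnt1, the gene of the enzyme that starts complex gangliosides, lay at 0.86 and 3.60 on 2 control arrays against −3.74 and −0.38 on 2 prominin arrays (−4.29, SE 1.67). The sialyltransferase gene St3gal2 lay at −1.90 (SE 1.02) and the ceramide desaturase gene Degs1 at −1.15 (SE 0.69). The sialyltransferase gene St8sia3 (2.02, SE 1.17) and the sphingosine kinase gene Sphk2 (1.25, SE 0.71) were higher. Without prominin replicate 1 the ganglioside median relative to all probes was −0.46 instead of −0.81.

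Cholesterol synthesis and uptake had 6 of 23 probes higher and 17 lower (median −0.49), and the array medians of the list overlapped. At an unadjusted p under 0.05 there were 1 higher and 1 lower probe, beside 2.52% and 2.34% of all tested probes. The groups did not overlap for 2 higher (8.70%, beside 9.28% of all tested probes) and 5 lower probes (21.7%, beside 8.7%). Idi1, the gene of isopentenyl diphosphate isomerase, lay at −1.54, −2.48 and −1.80 in controls and at −3.80, −4.27 and −3.90 in prominin cultures (−2.05, SE 0.69). The groups also did not overlap for the sterol enzyme genes Cyp51 (−2.61, SE 1.32) and Sc5d (−1.91, SE 0.91), one probe of the regulator gene Srebf2 (−1.60, SE 0.80) and the cholesterol exporter gene Abca1 (−2.22, SE 0.95), all lower. Lss, the lanosterol synthase gene, lay at −0.32, −1.09 and −1.35 against 0.84 and 1.96 (2.32, SE 0.89), the opposite order. Without prominin replicate 1 the list median relative to all probes was −0.27 instead of −0.52. Membrane protrusion genes and partners of prominin had 17 of 31 probes higher and 14 lower (median 0.09). The scaffold gene Slc9a3r2 lay at −6.82, −4.63 and −0.29 against 0.56, 0.82 and 3.51 (5.54, SE 1.75). The actin bundler gene Pls3 was 1.55 higher (SE 0.80), and Ezr, the ezrin gene, was lower at −2.13 (SE 1.16).

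Since the prominin group received an adenovirus, genes of adenovirus entry and of the antiviral response were described as well. Adenovirus receptors and entry had 2 of 13 probes higher and 11 lower (median −1.13), and the groups did not overlap for 5 lower probes (38.5%, beside 8.7% of all tested probes). These belonged to Rab5b, given above, to the integrin genes Itgb3 (−3.39, SE 1.11), Itgb5 (−2.63, SE 1.20) and Itgb1 (−3.06, SE 1.69), and to the complement regulator gene Cd46 (−2.08, SE 1.00). Control array 2 was far above the other controls for Itgb1 (6.81 against 0.66 and 0.80) and for Itgb5 (4.15 against 0.48 and 0.12). Without control replicate 2 the list median relative to all probes was −0.45 instead of −1.15, without prominin replicate 1 −0.48, without prominin replicate 2 −0.57 and without control replicate 1 −1.84.

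Interferon and antiviral genes had 20 of 38 probes higher and 18 lower, with a median of 0.02. Irf1, a transcription factor gene of the interferon response, lay at 2.47, 2.92 and 0.16 in controls and at 4.39, 2.69 and 4.45 in prominin cultures (1.99, SE 1.02), with overlap. The antiviral genes Ifit2 and Oas1a went opposite ways (−2.45, SE 0.98, and 1.53, SE 0.84). Targets of p53 and DNA damage genes had 10 of 25 probes higher and 15 lower (median −0.52), with Phlda3 at 1.44 (SE 0.72), the death receptor gene Tnfrsf10b at −2.58 and −1.20 by its 2 probes, and the kinase gene Atr at −1.47 (SE 0.78). Without prominin replicate 1 the p53 median relative to all probes was 0.09 instead of −0.55.

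Hypoxia and glycolysis genes had 9 of 33 probes higher and 24 lower (median −0.35). Hif1a, the gene of the oxygen-regulated transcription factor, had the opposite order, with −1.58, −2.62 and −2.86 in controls and 0.25, 0.84 and −0.94 in prominin cultures (2.40, SE 0.82). So had Egln3, a prolyl hydroxylase gene of that factor (3.14, SE 1.15), whereas the glycolytic regulator gene Pfkfb3 lay at −2.29 (SE 1.00). Of endoplasmic reticulum stress genes 11 of 24 probes were higher and 13 lower (median −0.15). Ddit3, a stress transcription factor gene, lay at 0.55, −1.04 and 0.04 against 2.63, 2.34 and 0.94 (2.12, SE 0.84), and Atf4 at −2.02, −1.48 and −1.67 against 0.04, −0.22 and −0.54 (1.48, SE 0.67), both without overlap.

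Among markers of cells that a cortical neurosphere should lack, those of erythroid cells and of embryonic tissues outside the nervous system had low ratios, with more probes higher than lower in the prominin group after centring. Erythroid genes had 11 of 16 probes higher and 5 lower (median 1.14), with list medians of −4.67, −4.67 and −3.59 in controls and −1.85, −3.58 and −2.72 in prominin cultures. The α-globin gene Hba-a1 lay at −1.03, −2.98 and −1.91 against 0.66, −0.34 and −0.28 (1.99, SE 0.82), and the anion exchanger gene Slc4a1 at −5.16 and −4.87 on 2 control arrays against −0.48 and −2.04 on 2 prominin arrays (3.76, SE 1.07). Alas2, the heme synthesis gene of red cells, was 1.41 higher (SE 0.72), and −0.50 with array spreads made equal. Genes expressed elsewhere in the embryo than in the nervous system had 27 of 36 probes higher and 9 lower (median 0.85), among them the plasma protein gene Ahsg (1.81, SE 0.80), the albumin gene Alb (2.04, SE 0.89) and the epithelial gene Epcam (2.09, SE 0.88), but not Hnf4a (−4.53 and −0.75 by its 2 probes). Their list medians were −5.34, −5.08 and −5.62 in controls and −3.88, −5.19 and −4.64 in prominin cultures, with overlap. On the deposited scale the median difference was −0.09 for the erythroid list and −0.29 for the embryonic one, so both signs turned without centring.

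The part of both lists in the other results was not tested. The erythroid median relative to all probes was 0.17 without control replicate 1, 0.34 without prominin replicate 1 and 0.66 without control replicate 2, against 1.11 with all arrays. With array spreads made equal it was 0.03, and the embryonic median was −0.50. Microglia and other leukocytes had 16 of 25 probes higher (median 0.45), endothelium and mural cells 11 of 18 (median 0.20), and fibroblasts and extracellular matrix 16 of 36 (median −0.45).

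**Figure D4:**
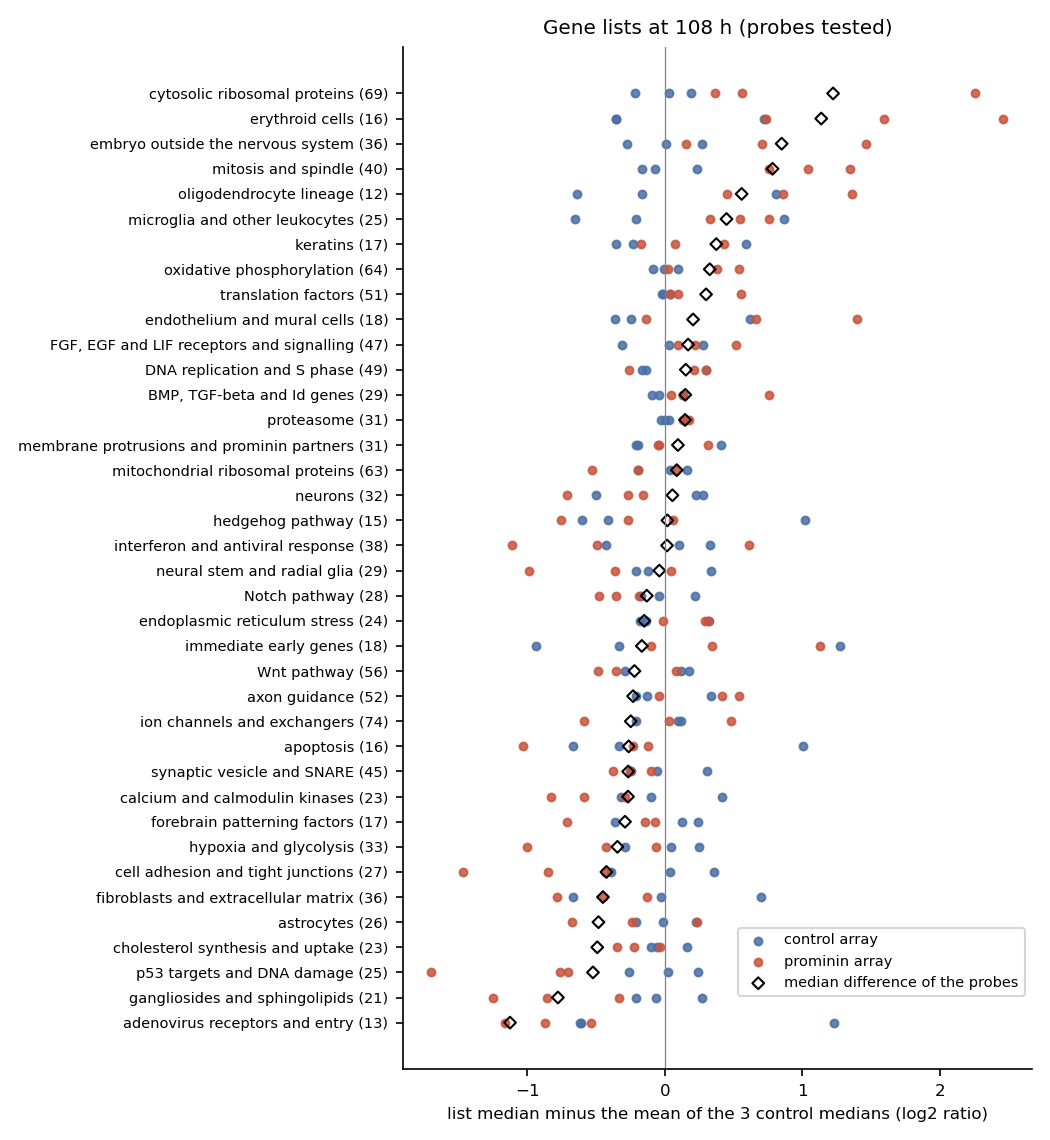
For each of the 38 gene lists, with the number of tested probes in brackets, the median centred log2 ratio on every 108 h array minus the mean of the 3 control medians (control arrays blue, prominin arrays red), and the median difference of the probes (diamonds). The array medians do not overlap in 5 lists that are higher, among them ribosomal proteins and mitosis, and 4 that are lower, among them gangliosides. The groups of single tested probes did not overlap in 9.28% (higher) and 8.7% (lower). How often lists drawn from all probes would do so was not tested.

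The same contrast on the arrays titled 24 h shares no array with the one at 108 h, and the difference between both effects was tested for the 9155 probes that had 2 or more values in each of the 4 groups. Each value at 24 h, and each difference between the times, rests on the titles of the 24 h prominin arrays, whose treatment text gives 108 h. Limma called 0 of them (0.0%), with 545 at an unadjusted p under 0.05 (5.95%) and a smallest adjusted p of 0.252. Prom1 had the opposite order at 24 h, with 1.72 and 0.66 in controls and −1.62 and −0.45 in prominin cultures (difference −2.23, SE 0.98). Each of these Prom1 values was, before centring, a ratio of small whole numbers, as dim spots give. Wnt7a lay at 2.61 and 3.81 in 24 h controls and at 5.96 and 5.96 in 24 h prominin cultures (2.75, SE 0.94), also the opposite order. The difference between the effects was −5.98 for Wnt7a (SE 1.01, limma adjusted p = 0.427) and −8.13 for Crkl (SE 1.21, limma adjusted p = 0.252). Ribosomal protein genes had a median difference of −0.35 at 24 h (63 probes), and mitosis genes one of −0.16 (27 probes). Ratios of small whole numbers, as dim spots give, were 3.28 to 9.60% of the values on 108 h arrays and 31.0 to 56.0% of those on 24 h arrays.

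**Figure D5:**
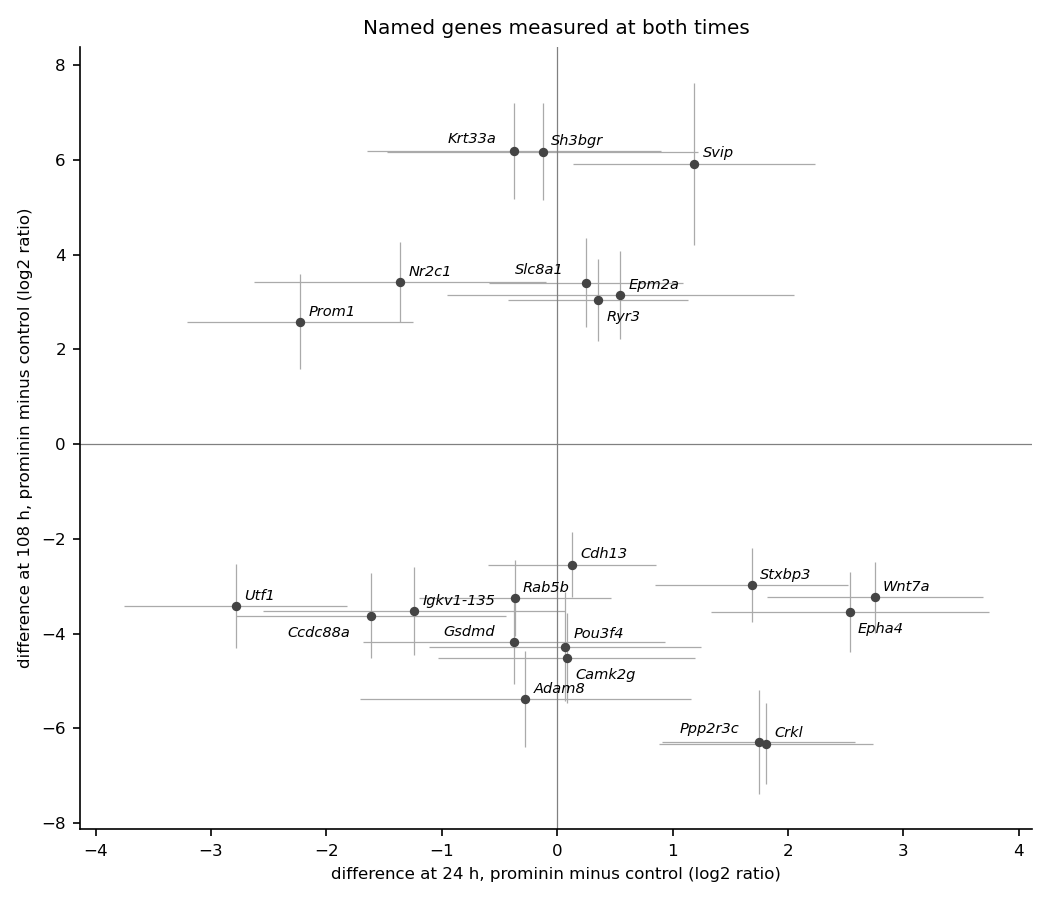
Difference between prominin and control cultures on arrays titled 24 h (across) and at 108 h (up) in log2 ratio, with bars of 1 SE, for Prom1 and the genes named by the rule that were measured at both times. Wnt7a, Epha4, Stxbp3 and Crkl lie below 0 at 108 h and above 0 at 24 h, Prom1 and Nr2c1 lie above 0 at 108 h and below 0 at 24 h, and Utf1 is lower at both times.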

How the data were processed

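The deposited table holds 1 log2 ratio per probe and array, as the authors gave it; how arrays were scanned and normalized is not given in the sources used here. Per the labels' protocols, RNA was extracted with Trizol and RNeasy and labelled through dendrimers, without a dye swap. Exact zeros and the repeated highest value (16.61) were set to missing (4986 to 5610 and 32 to 184 probes per 108 h array). From each array its median over the 4532 probes with values on all 12 arrays was subtracted. Probes with 2 or more values in both groups were fitted with limma 3.58.1 (R 4.3.3) with a mean for each group (moderated variance, Benjamini-Hochberg adjustment over all 14528 probes, threshold 0.05). The fit was tested on simulated data.

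Symbols came from the platform annotation, which can be old: 16620 probes had 1 symbol, 113 several and 5005 none, and 438 symbols were updated through a RefSeq table. Named were Prom1, then per direction the 12 genes of smallest p among probes with 6 values and groups that did not overlap, and 5 with 4 or 5 values, passing over unnamed gene models (the values of 1 gene so chosen are not reported here), and up to 5 members of each list by p, plus members said to be named for groups that did not overlap, named with their values known. Sample numbers were not taken as pairs: deviations of same-numbered arrays correlated at 0.10, 0.03 and 0.10. The comparison, its members and the 38 gene lists were chosen with earlier results of these data known.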

Additional observations from a re-analysis of the deposited data

Results flagged for a closer look

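For 9 named genes (149 gene probes were followed in all) the measured prominin arrays lay on one side of the control arrays at 108 h and on the other side at 24 h. The difference between the 2 effects was tested in limma's fit over 12 arrays, and none passed. The 24 h prominin arrays are placed by their titles, and their treatment text gives 108 h. It was 4.80 for Prom1 (SE 1.29, limma adjusted p = 0.805), −5.98 for Wnt7a (SE 1.01, 0.427), −4.65 for Stxbp3 (SE 1.00, 0.805) and −8.02 for the probe given to Ppp2r3c (SE 1.19, 0.352). For Cacna1a, a calcium channel gene, it was 6.42 (SE 1.32, 0.805), with −1.46 and −3.19 on 2 control arrays against 1.44, 0.80 and 0.58 at 108 h. A second Cacna1a probe differed by −0.39 at 108 h. For Egfr it was 2.17 (SE 0.73, 0.805), for Itgb1 −4.42 (SE 1.87, 0.817), for the embryonic globin gene Hba-x 4.23 (SE 1.06, 0.805) and for Rpl28 1.84 (SE 0.77, 0.817). These genes had been named for the order of their groups at 108 h or for a small p there, and each 24 h group had 2 or 3 values. All 24 h values of Prom1 and most of those of Ppp2r3c and Cacna1a were ratios of small whole numbers, as dim spots give. Such ratios were fewer for Wnt7a and Stxbp3 and absent for Egfr, Itgb1, Hba-x and Rpl28. The share of all probes with such a change of order is not given here, so the count of 9 cannot be set against it.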

How the results depend on the processing

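With 3 arrays a group no exact test can go below p = 0.1, and limma called 0 probes under each of the 22 alternatives at 108 h. The count of probes at an unadjusted p under 0.05 (706) was 1556 without centring, 437 with array spreads made equal, 1114 with zeros kept and 442 with 3 values required in both groups. Leaving out 1 array gave 485 to 649. The share of these probes that were higher (51.8%) was 5.08% without centring, 74.5% with zeros and top code kept, 75.7% with zeros kept, and 29.4% (without prominin replicate 1) to 65.9% (without prominin replicate 3) when 1 array was left out. The ribosomal median relative to all probes was 0.58 to 1.65 when 1 array was left out. With the replicate block limma called 0 probes, the count at an unadjusted p under 0.05 was 665, the ribosomal value was 1.21 and the Prom1 value 2.94, so it changed no call. The interaction had 0 called probes in 14 of its 15 alternatives and 17 with zeros and top code kept. Prom1 was 1.94 to 2.94 when 1 array was left out, and could not be fitted without prominin replicate 1 or 3. Of 149 gene probes, 143 kept their direction in each alternative that could be fitted. The other 6 turned as follows: Ppp2r3c was 0.34 and Mbp 0.47 with probes averaged to genes; Alas2 was −0.50, Mbp 0.24 and Bub1b −1.30 with array spreads made equal; Stmn1 was −0.28, Bub3 −0.31 and Bub1b −0.083 without centring. The cause was not tested. Of the 38 list medians relative to all probes, 13 kept their sign throughout.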
